A study of Arabidopsis thaliana with 42 samples.

Results

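The late change is the difference in transcript level between 30 and 120 min of cordycepin in Col-0 seedlings, the wild type of Arabidopsis thaliana. It was taken from 9 of the 42 libraries of a study of the RNA helicases RH6, RH8 and RH12, of the DEAD-box class. The 3 Col-0 libraries at 30 min and the 3 at 120 min gave the change, and the 3 at 60 min gave the step between. All were made from rRNA-depleted total RNA of whole 5-day-old seedlings whose labels give the agent as cordycepin. The same agent label stands on the 0 min libraries, and the labels give no concentration and no matched series without the drug, so effects of the drug and of incubation time cannot be told apart. For comparison, 3 Col-0 libraries at 0 min and 6 libraries of the line labelled rh6812 at 30 and 120 min were used, of the same age and with the same agent label. The labels do not name the alleles of rh6812. Nor do they tell whether the replicates grew as separate cultures. The p-values below therefore measure only how far these samples spread, which may be technical.

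Cordycepin is an adenosine analogue that lacks the 3' hydroxyl group and stops RNA chains that incorporate it, so it is used to block new transcription and follow the loss of existing mRNA. In such a series an mRNA that is degraded quickly falls relative to the others, and a stable one rises in relative abundance even when its amount per cell does not grow. Much cytoplasmic mRNA is lost by shortening of the poly(A) tail, removal of the 5' cap and digestion from the 5' end. RH6, RH8 and RH12 belong to the same family as Dhh1 of yeast and DDX6 of animals, which act at the decapping and translational repression steps. In whole seedlings, loss of cells of a type and less RNA per cell cannot be told apart.

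Totals in the 9 libraries ran from 17311068 to 21564488 counts. Chloroplast loci took 55.2% to 56.8% of counts at 30 min, 54% to 57.9% at 60 min and 56.9% to 59.5% at 120 min, and mitochondrial loci 1.03% to 1.09%, 1.08% to 1.19% and 1.13% to 1.24%. The TMM scaling factors (trimmed mean of M values) fell with time, from 0.892 to 0.941 at 30 min to 0.75 to 0.826 at 120 min. The summed level of 5 green shoot markers was 24943 to 28403 CPM (TMM-scaled counts of a library taken to a fixed total) at 30 min and 30575 to 35356 CPM at 120 min, and that of 9 root markers 2057 to 2235 and 2623 to 2708 CPM. Both sums were higher in every library at 120 min, but the median late change of the 9 root markers was -0.51 on the log2 scale, with 1 called higher and 2 lower (edgeR), and that of the 5 green shoot markers was 0.33, with 2 higher and 0 lower. The 2 epidermis markers summed to 53 to 65.3 and 61.5 to 73.9 CPM, and the 6 tested seed markers to 4.14 to 14.5 and 5.57 to 40.2 CPM. The part of these shifts in the changes below was not tested.

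Between 30 and 120 min histone mRNAs and mRNAs of several regulator families were often lower, while lectin receptor kinase, proteasome, cytoskeleton and organelle transcripts were more often higher than lower under TMM scaling. Of 21486 genes tested with edgeR's quasi-likelihood test and a Benjamini-Hochberg threshold of 0.05, 2298 (10.7%) were higher and 3322 (15.5%) were lower at 120 min. More falls than rises were large: 1002 genes fell and 339 rose more than 2-fold, and 104 fell and 46 rose more than 4-fold. The median late change over all genes tested was -0.04 on the log2 scale, with 5% of genes below -1.09 and 5% above 0.70. The libraries at 120 min all lay above those at 30 min for 4017 genes (18.7%) and all below them for 4870 (22.7%).

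The split between rises and falls depended on the scaling. TMM places a typical transcript near 0, so each change is set against the bulk of transcripts and is neither an absolute amount nor a half-life. With scaling by library size alone the median change was -0.27, and 484 genes were higher and 5699 lower. With DESeq2's size factors the median was 0.02, and 2994 were higher and 2826 lower. With replicate number as a block the counts were 2829 higher and 3775 lower.

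The step from 30 to 60 min called few genes: 30 higher (0.14%) and 138 lower (0.642%), or 62 and 306 with the replicate block. The step from 60 to 120 min called 281 higher (1.31%) and 597 lower (2.78%), or 548 and 912 with the block. Among the 3322 genes lower over the whole interval the median change was -0.76, made up of a median of -0.33 in the first step and -0.44 in the second. Per hour these medians were -0.67 and -0.44. Among the 2298 higher genes the median was 0.49, with step medians of 0.20 and 0.28 and hourly rates of 0.40 and 0.28. These steps share the 60 min libraries, so an error there enters them with opposite sign. A test of the change of rate at 60 min called 0 genes with edgeR and 0 with DESeq2, with 875 genes at an unadjusted p under 0.05, and 1 gene with a block of replicate within each genotype. The first step counts were lowest, 4 higher and 42 lower, without the first 30 min replicate, and the second step counts, 77 and 225, without the first 120 min replicate.

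**Figure D1:**
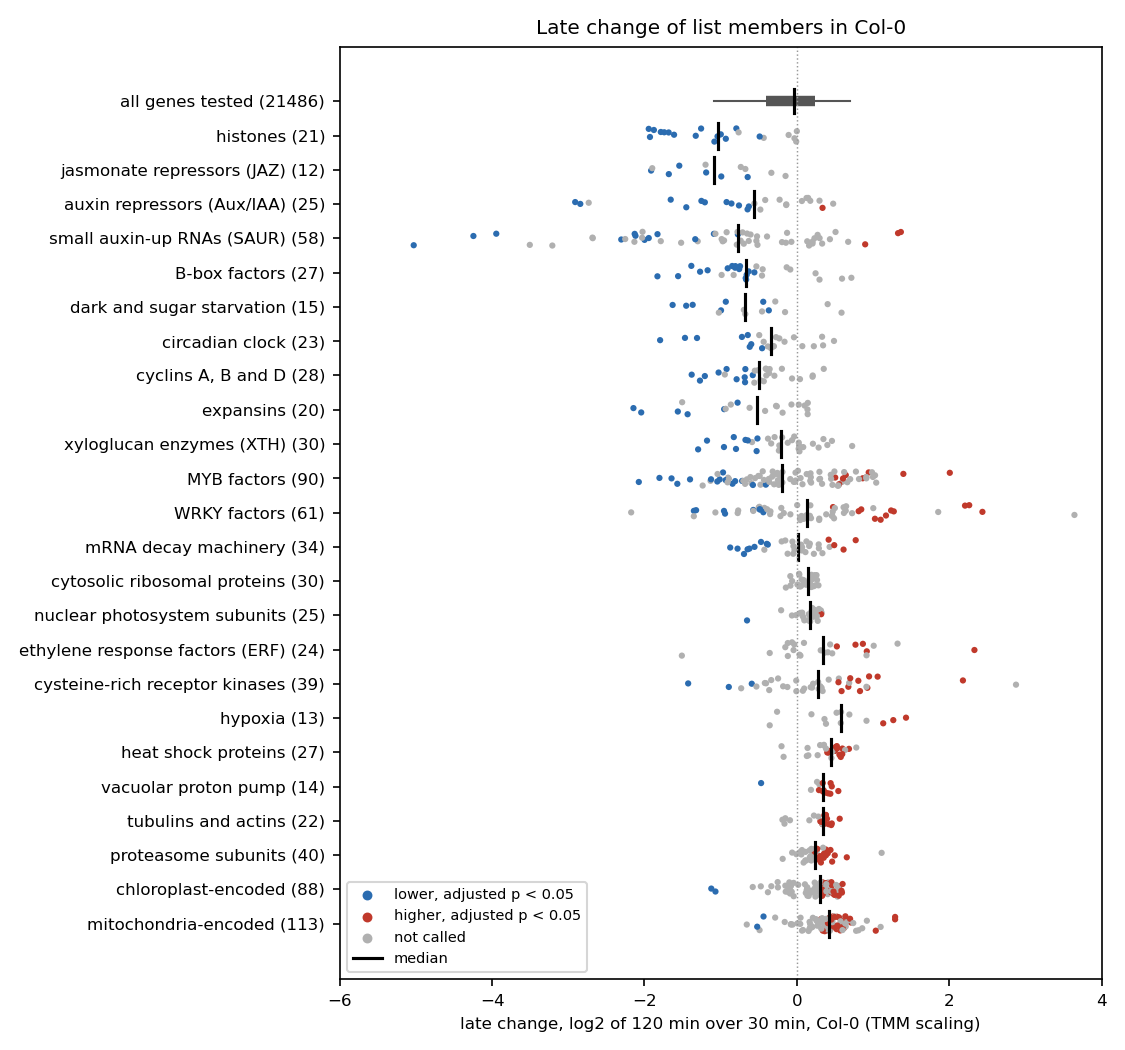
Late change in Col-0, log2 of 120 over 30 min, for every tested member of 24 gene lists, with a box for all 21486 genes tested. Points are genes, coloured by whether they passed the threshold. Histones and jasmonate repressors lie mostly below 0, with medians of -1.04 and -1.09, and tubulins and actins mostly above it, with a median of 0.35.

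Most histone mRNAs fell in Col-0. Histones package DNA, and the canonical forms are made mainly during DNA replication. HTB2, a histone H2B gene, read 11.6, 10.4 and 12.6 CPM at 30 min, 5.36, 6.11 and 6.19 at 60 min and 2.47, 2.92 and 3.68 at 120 min. No library of a later time reached the level of an earlier one. HTB2 changed by -1.93 ± 0.13 (log2 ± SE, adjusted p = 1.29e-10), with -0.97 in the first step and -0.96 in the second, both past the threshold. AT5G65360, an H3.1 gene, read 36.9, 31.1 and 30.8 CPM at 30 min, 19.5, 16.9 and 24.4 at 60 min and 8.75, 7.76 and 8.23 at 120 min. The 3 times did not overlap, and the change was -1.996 ± 0.129 (adjusted p = 8.56e-11). The H2A genes HTA13 and HTA2 changed by -1.94 and -1.74, and HTB9, another H2B gene, by -1.61.

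Of 21 listed histone genes 15 fell (71.4%, against 15.5% over all genes tested) and 0 rose. The median of the listed genes was -1.04, against -0.04 over all genes tested. In the first step 6 of them were lower and in the second 12. A wider family, taken from product names after the values had been seen, held 43 tested genes. Of these 29 fell (67.4%) and 0 rose, with a median of -0.998. The product names include "Histone superfamily protein", which need not mean a core or linker histone. Within this family the 23 genes without introns had 20 falls and a median of -1.20, and the 20 with introns had 9 falls and a median of -0.41. Those with introns were split. HTA13, HTA6, HTA2 and H2AXA, each with 1 intron, changed by -1.94, -1.79, -1.74 and -1.68, while 11 of the 20 were not called. In plants the canonical H3, H4 and H2B genes mostly lack introns, and H3.3 genes have them. Histone genes occur in near-identical copies, and the sources used here do not say how reads shared between copies were assigned, so values of single copies are uncertain.

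The H3 genes divided by variant. H3.1 is deposited mainly during replication, and H3.3 replaces it outside replication. All 5 genes that RefSeq's synonyms mark as H3.1 fell, with a median of -1.35, from AT5G65360 at -1.996 and AT1G09200 at -1.71 to AT5G10390 at -1.15. Of the 3 marked as H3.3, AT4G40030 and AT4G40040 were not called, at 0.15 ± 0.119 and 0.06 ± 0.131. AT4G40030 read 91.4, 109 and 87.2 CPM at 30 min and 105, 105 and 111 at 120 min, and the groups overlapped. The third, AT5G10980, fell by 0.38 (adjusted p = 0.0103), a call lost without the first 120 min replicate, where the change was -0.34. The H2A.Z genes HTA8, HTA9 and HTA11, which encode a variant found at gene starts, changed by 0.00 ± 0.148, -0.01 ± 0.122 and -0.11 ± 0.118 and were not called. This grouping was also chosen after the values had been seen, and the difference between variants was not tested.

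Among called genes whose log2 CPM averaged 3 or more over the 30 fitted libraries of both lines and whose 30 and 120 min libraries did not overlap, the 10 largest falls were led by BT4. BT4 encodes a BTB and TAZ domain protein and read 15.2, 16.4 and 7.61 CPM at 30 min, 3.76, 5.07 and 3.7 at 60 min and 2.22, 3.05 and 2.28 at 120 min. The drop lay mostly before 60 min, with -1.64 in the first step (adjusted p = 0.00421) and -0.74 in the second (adjusted p = 0.215), and the whole change was -2.38 ± 0.3 (adjusted p = 5.3e-06). With a block of replicate within each genotype its second step was also called (adjusted p = 0.0174). GLK2, a transcription factor that promotes chloroplast development, read 12.3, 15.5 and 13.1 CPM, then 6.78, 8.91 and 7.85, then 2.34, 2.65 and 3.39. Its first step of -0.79 did not pass the threshold (adjusted p = 0.159), its second of -1.48 did (adjusted p = 0.00666), and the whole change was -2.28 ± 0.287 (adjusted p = 5.01e-06). With that block its first step was called too (adjusted p = 0.0232). For both genes every library at 120 min was below every library at 60 min. The change of rate at 60 min was called for neither gene. For BT4 it was 2.54 log2 units per hour with the replicate block (edgeR, adjusted p = 0.726), and its adjusted p was 0.0521 with the block within each genotype.

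RAP2.6, a transcription factor of the ethylene response factor family, read 13.4, 16.3 and 18 CPM at 30 min and 2.84, 2.72 and 4.44 at 120 min, a change of -2.24 ± 0.312 (adjusted p = 1.97e-05). EXLA1, an expansin-like cell wall protein, read 72.6, 64 and 76.3 CPM, then 34.1, 37.3 and 41.7, then 16.8, 19.4 and 15, a change of -2.06 ± 0.381 (adjusted p = 0.000462). AT3G15450, annotated as an aluminium-induced protein with YGL and LRDR motifs, read 124, 202 and 103 CPM at 30 min and 28.6, 31.4 and 32.9 at 120 min, a change of -2.21 ± 0.32 (adjusted p = 3.62e-05). In all 3 genes the 60 min libraries lay between the other times without overlap. The remaining 4 of these falls, beside AT5G65360 above, were AT3G62550, annotated as adenine nucleotide alpha hydrolase-like, at -2.24, SAUR79, a small auxin-up RNA, at -2.13, MEE14 at -2.07 and GSTU6, a glutathione S-transferase, at -2.06. Their adjusted p ran up to 0.00422.

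**Figure D2:**
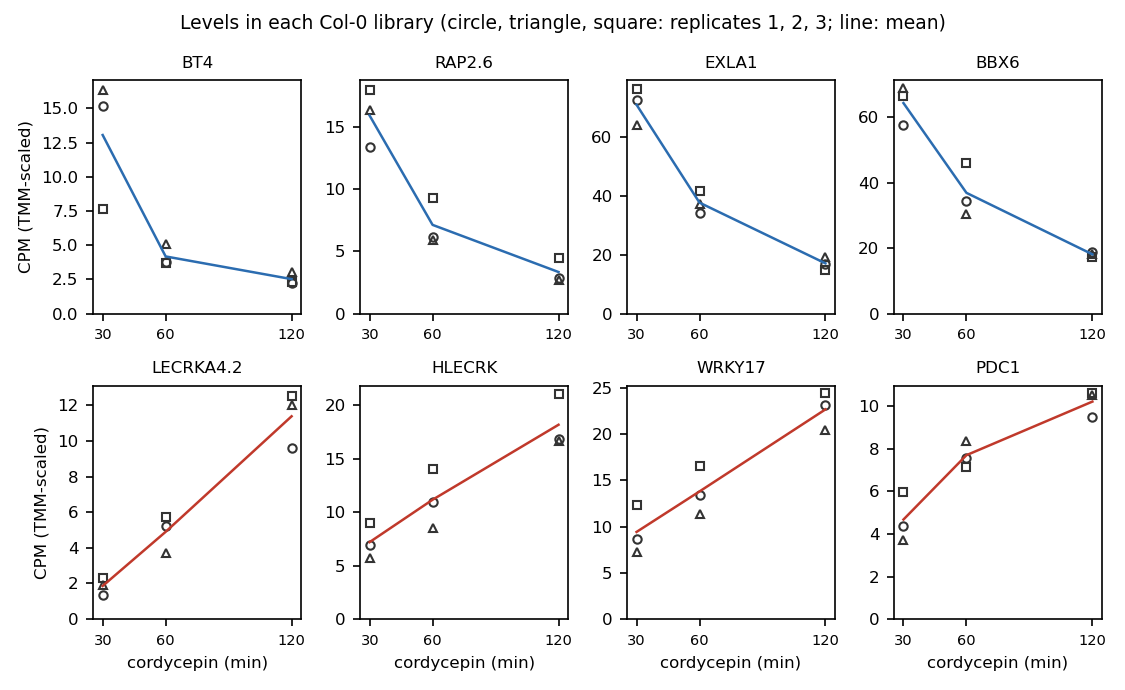
Level in CPM, after TMM scaling, of 8 genes in the 3 Col-0 libraries at each of 30, 60 and 120 min, with lines through the means. The means of BT4, RAP2.6, EXLA1 and BBX6 go down at each step, and those of LECRKA4.2, HLECRK, WRKY17 and PDC1 go up, with LECRKA4.2 reaching 12.6 CPM at 120 min.

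JAZ proteins repress jasmonate responses until the hormone marks them for degradation. Of 12 tested JAZ genes 6 fell (50%, against 15.5% over all genes tested) and 0 rose, with a median of -1.09. JAZ9 read 32.7, 25.3 and 50.6 CPM at 30 min, 19.3, 17.2 and 31 at 60 min and 9.49, 10.7 and 13.6 at 120 min. The 30 and 60 min libraries overlapped, whereas the 120 min libraries were below both. The change was -1.68 ± 0.318 (adjusted p = 0.00052). JAZ3 fell by 0.99 on the log2 scale and JAZ11 by 0.65. JAZ2 changed by -1.54 ± 0.407 (adjusted p = 0.00806), a call lost when the 15 Col-0 libraries were fitted alone, where the change was -1.52.

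Aux/IAA proteins repress auxin responses and are short-lived. Of 25 tested genes 11 fell (44%) and 1 rose (4%), against 15.5% and 10.7% over all genes tested, with a median of -0.56. IAA2 read 56.7, 54.1 and 49.4 CPM at 30 min, 25.6, 27.4 and 30.1 at 60 min and 22.9, 21.9 and 22.4 at 120 min. The times did not overlap, but the first step carried -0.95 of the change of -1.25 ± 0.167 (adjusted p = 5.73e-06), and the second, -0.30, did not pass the threshold. IAA4 fell by 1.45, IAA3 by 1.21 and IAA28 by 0.92. The single rise was IAA9 at 0.34 ± 0.0896 (adjusted p = 0.00678), which was not called with scaling by library size alone, at 0.11.

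Small auxin-up RNAs (SAUR) mark auxin-induced growth. Of 58 tested 12 fell (20.7%) and 3 rose (5.17%), against 15.5% and 10.7% over all genes tested, with a median of -0.78. SAUR6 read 2.83, 3.73 and 2.15 CPM at 30 min and 0.431, 1.19 and 0.584 at 120 min, a change of -1.999 ± 0.338 (adjusted p = 0.000105). SAUR55 went the other way, from 1.25, 1.68 and 0.798 CPM to 3.58, 4.04 and 2.16, a change of 1.36 ± 0.303 (adjusted p = 0.00161). Neither gene overlapped between 30 and 120 min. Of 20 expansins, which loosen cell walls, 6 fell and 0 rose, with a median of -0.52, and of 30 XTH genes, which cut and rejoin xyloglucan, 9 fell and 0 rose, with a median of -0.21. Each count is 30% of its list, against 15.5% lower over all genes tested. EXPA1 fell by 1.43, EXPA13 by 0.78 and XTH16 by 0.96.

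The B-box family of transcription factors has many members in light and flowering-time signalling. Of 27 tested members 16 fell (59.3%, against 15.5% over all genes tested) and 0 rose, with a median of -0.67. BBX6 read 57.7, 68.8 and 66.5 CPM at 30 min, 34.3, 30.4 and 45.9 at 60 min and 18.9, 18.2 and 17.2 at 120 min. The times did not overlap, and both steps passed the threshold, with a whole change of -1.83 ± 0.139 (adjusted p = 6.16e-10). BBX25, BBX2 and BBX4 fell by 1.27, 1.17 and 0.67. Of 97 genes with a bHLH product name, a family chosen after the values had been seen, 33 fell (34%) and 2 rose (2.06%). Their median was -0.46.

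MYB factors had 15 falls (16.7%) and 9 rises (10%) among 90, close to the shares over all genes tested, with a median of -0.19. MYB34 and MYB51 both activate indole glucosinolate synthesis. MYB34 fell from 6.37, 5.46 and 6.45 CPM at 30 min to 2.65, 2.52 and 1.75 at 120 min, a change of -1.40 ± 0.244 (adjusted p = 0.000154). MYB51 rose from 17.9, 18.3 and 19 CPM to 37.1, 29.6 and 39.3, a change of 0.94 ± 0.194 (adjusted p = 0.000854). The times did not overlap for either gene. Both were picked from the list by their small p, and the difference between them was not tested. WRKY factors, many of which act in defence, had 11 rises (18%) and 8 falls (13.1%) among 61. Their median was 0.13, or -0.10 with scaling by library size alone.

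Genes induced in darkness and sugar starvation had 7 falls (46.7%, against 15.5% over all genes tested) and 0 rises among 15, with a median of -0.68. TPS11, of the trehalose phosphate synthase family, read 54.5, 61.3 and 46.2 CPM at 30 min and 24.8, 18.1 and 19.9 at 120 min, a change of -1.37 ± 0.202 (adjusted p = 2.74e-05), and TPS8 fell by 0.996. BT1 and BT2, relatives of BT4, fell by 1.63 and 1.45. Of 23 clock genes 8 fell (34.8%) and 0 rose, with a median of -0.34. Among the falls were CHE, a repressor of the morning gene CCA1, at -1.80 ± 0.266, LNK4 at -1.47 and ELF3, a part of the evening complex, at -0.60. Of 28 cyclins 10 fell (35.7%) and 0 rose, with a median of -0.49. Among these falls were the mitotic cyclin CYCB1;2 at -1.21 and the D-type cyclin CYCD3;3 at -0.58. CBF2, a regulator of cold responses, fell by 1.58, as 1 of 2 falls among 20 abscisic acid and cold genes. That list had 10% lower, against 15.5% over all genes tested.

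LECRKA4.2, a lectin receptor kinase, had the largest rise by the same criteria. The average of both lines let in genes that were low in Col-0. It read 1.36, 1.89 and 2.33 CPM at 30 min, 5.24, 3.73 and 5.74 at 60 min and 9.62, 12 and 12.6 at 120 min. Each time lay wholly above the one before, and the change was 2.62 ± 0.248 (adjusted p = 4.07e-08), with 1.40 in the first step and 1.22 in the second, both past the threshold. HLECRK, another lectin receptor kinase, read 6.91, 5.73 and 8.96 CPM at 30 min and 16.8, 16.6 and 21.1 at 120 min, a change of 1.34 ± 0.166 (adjusted p = 2.15e-06). A family of 75 tested genes with a lectin or malectin kinase product name, AT5G39020 among them, was chosen after the values had been seen. Of these 37 rose (49.3%) and 4 fell (5.33%), against 10.7% and 15.5% over all genes tested, with a median of 0.58. With scaling by library size alone 25 were higher and 6 lower, with a median of 0.35. Of 39 cysteine-rich receptor kinases 10 rose (25.6%) and 3 fell (7.69%), with a median of 0.28, and with that scaling 4 were higher and 5 lower. CRK3 read 15.6, 14.6 and 17.9 CPM at 30 min and 31.4, 27.1 and 32.9 at 120 min, a change of 0.93 ± 0.136 (adjusted p = 2.07e-05).

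The other leading rises were of mixed function. AT2G18150, a peroxidase, rose by 1.70 from below 1 CPM in every library at 30 min to 1.85, 1.33 and 2.34 CPM, and met the criterion on level only through the libraries of rh6812, where it read 13.5, 14.2 and 14.8 CPM at 30 min. AT2G32140, annotated as a transmembrane receptor, rose by 1.68, the uncharacterised AT5G14730 by 1.66, AT1G65690, of a hydroxyproline-rich glycoprotein family, by 1.52, AT1G24140, a matrixin family metalloprotease, by 1.35, and AT5G39020, a malectin receptor-like kinase, by 1.33. Their adjusted p ran up to 0.00522. WRKY17, a negative regulator of basal defence, read 8.65, 7.3 and 12.3 CPM at 30 min and 23.2, 20.5 and 24.4 at 120 min, a change of 1.27 ± 0.22 (adjusted p = 0.000171). WRKY61 rose by 2.21, from at most 1.04 CPM to at least 3.85.

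Of 13 listed hypoxia genes 3 rose (23.1%, against 10.7% over all genes tested) and 0 fell, with a median of 0.58. They were PDC1, a pyruvate decarboxylase of fermentation, which read 4.35, 3.73 and 5.96 CPM at 30 min and 9.49, 10.5 and 10.6 at 120 min (1.13 ± 0.186, adjusted p = 7.26e-05), LBD41 at 1.27 and PCO1, an oxygen-sensing cysteine oxidase, at 1.43. With scaling by library size alone 3 were higher and 1 lower. Of 24 listed ethylene response factors, a list without RAP2.6, 5 rose (20.8%) and 0 fell, with a median of 0.34. ERF5 rose by 0.87 from 15.3, 13.8 and 15 CPM to 26.8, 24.5 and 29. Such small counts say little about either list. With scaling by library size alone 2 of the ethylene response factors were higher and 1 lower.

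Several lists of cell machinery had rises and few falls. Of 22 tubulins and actins 14 rose (63.6%, against 10.7% over all genes tested) and 0 fell (median 0.35). Of 14 subunits of the vacuolar proton pump 10 rose (71.4%) and 1 fell (median 0.35). Of 40 proteasome subunits 17 rose (42.5%) and 0 fell (median 0.24), and of 27 heat shock proteins 12 rose (44.4%) and 0 fell (median 0.44). Called rises in these lists ran from 0.23 to 0.68, and 8, 3, 23 and 15 members, in that order, were not called. ACT7, a vegetative actin, read 250, 247 and 240 CPM at 30 min, 289, 264 and 284 at 60 min and 335, 314 and 321 at 120 min, and the times did not overlap (0.40 ± 0.0866, adjusted p = 0.00141). RPT5A and RPN1A of the proteasome's regulatory particle rose by 0.50 and 0.66, VHA-A, the catalytic subunit of the proton pump, by 0.54, TUB3 by 0.45, HSP70-15 by 0.58 and the mitochondrial chaperonin HSP60-2 by 0.56. These rises depended on the scaling: with library size alone 0 tubulins and actins, 0 proton pump subunits, 1 proteasome subunit and 0 heat shock proteins were higher, and of the genes named in this paragraph RPN1A alone was still called. TUB3 and the HSP70 genes have close relatives with which they may share reads.

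None of 30 cytosolic ribosomal protein genes was called, with a median of 0.14 that became -0.08 with scaling by library size alone. The nearest to a call was RPL3A, at 393, 400 and 364 CPM at 30 min and 492, 435 and 463 at 120 min, a change of 0.26 ± 0.1 (adjusted p = 0.0509, or 0.0077 with the replicate block). Of 25 nuclear photosystem genes 1 rose and 1 fell, of 21 antenna protein genes 1 rose and 2 fell, and of 5 rubisco small subunit and activase genes 1 rose. Heat shock factors had 3 rises among 18, with HSFB2A at 1.02 ± 0.169 (adjusted p = 7.78e-05). Stress zinc fingers had 2 rises among 8, clade A PP2C phosphatases 1 among 8, calmodulin-like genes 1 rise and 1 fall among 12, and SR splicing factors 3 falls among 20. Against 10.7% higher and 15.5% lower over all genes tested, such small counts say little about these lists.

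Organelle transcripts were called higher more often than lower. Of 88 chloroplast-encoded genes 25 rose (28.4%) and 2 fell (2.27%), with a median of 0.30. Of 113 tested mitochondria-encoded genes 42 rose (37.2%) and 2 fell (1.77%), with a median of 0.42. Over all genes tested 10.7% were higher and 15.5% lower. ATMG00220 read 281, 299 and 317 CPM at 30 min, 350, 347 and 340 at 60 min and 432, 438 and 425 at 120 min, with no overlap between times (0.53 ± 0.0866, adjusted p = 7.12e-05), and ATMG00510 rose by 0.62. ATCG00050 fell, from 32.5, 35.8 and 25.2 CPM to 15.7, 15.6 and 11.6 (-1.12 ± 0.258, adjusted p = 0.00259). With scaling by library size alone 0 chloroplast-encoded genes were higher and 3 lower, and 9 mitochondria-encoded genes were higher and 4 lower.

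The mRNA decay machinery changed in both directions, with 4 rises (11.8%) and 9 falls (26.5%) among 34 genes. Over all genes tested 10.7% were higher and 15.5% lower. The median of the list was 0.01, which became -0.22 with scaling by library size alone. PAB2, a poly(A)-binding protein, read 243, 249 and 253 CPM at 30 min, 280, 293 and 284 at 60 min and 340, 348 and 358 at 120 min, and the times did not overlap (0.49 ± 0.0805, adjusted p = 7.4e-05). VCS, the scaffold of the decapping complex, rose by 0.77, and LSM1A, of the LSM ring that activates decapping, fell by 0.78. With library size alone PAB2 was not called, at 0.26. RH8 and RH12 were not called, at 0.16 ± 0.1 and 0.06 ± 0.111. RH6 changed by -0.38 ± 0.136 (adjusted p = 0.0383), a call lost with DESeq2's size factors (-0.33) and when any single library at 30 or 120 min other than the first at 30 min was left out (-0.42 to -0.31).

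Calls differed by gene model. Genes were grouped by the intron count and transcript length of RefSeq's TAIR10.1 models, which covered 21276 of the 21486 tested genes. Of 3490 genes without introns 8.42% were higher and 17.4% lower, with a median late change of -0.11. Of 1202 genes with 15 or more introns 20.5% were higher and 4.74% lower, with a median of 0.16. Transcripts of over 1000 and up to 1500 bases were higher in 7.6% and lower in 18.7%, and those over 4000 bases in 16.1% and 5.33%, with a median of 0.18.

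In the upper part of the range of expression levels, 11.2% of intronless genes were higher and 23.6% lower against 31.4% and 2.95% of those with 15 or more. In the middle of the level range 11.7% and 26.3% stood against 8.63% and 8.36%, so the order of the rises turned there, and among weakly expressed genes 5.64% and 10.2% stood against 6.42% and 3.74%. With scaling by library size alone, 26.2% of intronless genes and 10.6% of those with 15 or more introns were lower, but the order of the rises turned, with 4.1% and 1.25% higher. The median late change of genes with 15 or more introns was -0.06 in the line labelled rh6812. Level differed with intron number, with a median log2 CPM of 1.61 for genes without introns and 3.73 for those with 15 or more. The separate parts of introns, transcript length and function were not tested.

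**Figure D3:**
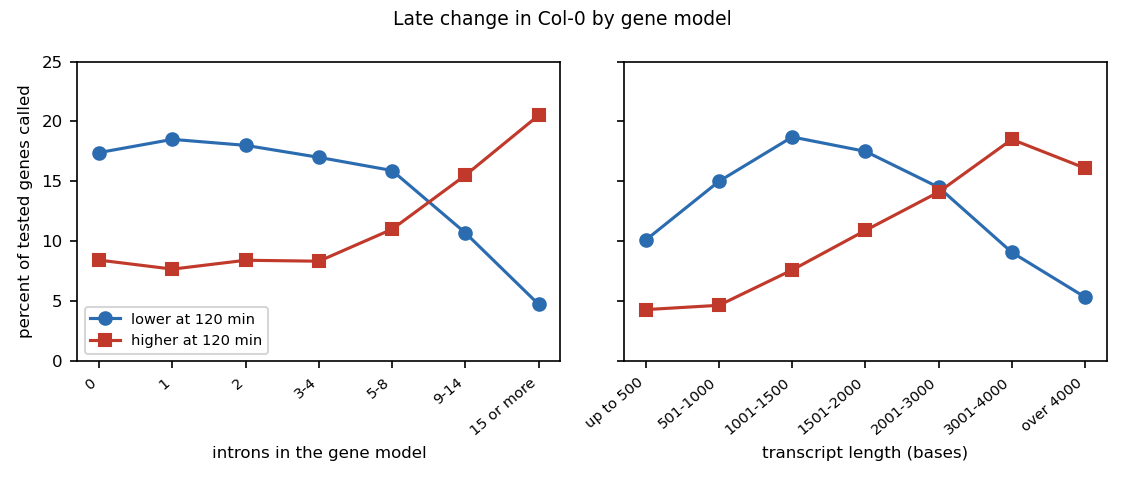
Percent of tested genes called higher or lower at 120 than at 30 min in Col-0, by number of introns (left) and by transcript length in bases (right) of the RefSeq model. The percent lower goes from 17.4% without introns to 4.74% with 15 or more, and the percent higher from 8.42% to 20.5%.

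The late change was set against the early one, from 0 to 30 min, as rates in log2 units per hour. These intervals share the 30 min libraries, so an error in those libraries enters both rates with opposite sign. The difference of the rates, late minus early, passed the threshold upward in 339 genes (1.58%) and downward in 849 (3.95%), or 5.53% in all. The upward count was 187 without the second 30 min replicate, 223 without the first, and 648 with a block of replicate within each genotype.

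Some genes rose early and fell late. AT1G66500, annotated as pre-mRNA cleavage complex II, read 16.1, 7.85 and 12.5 CPM at 0 min, 42.2, 42 and 44.9 at 30 min, 31, 26 and 32.7 at 60 min and 23.2, 21.2 and 22.5 at 120 min. Of these times it was highest at 30 min in all 3 libraries, and it ended above its starting level. Its rate went from 3.64 to -0.63 per hour, a difference of -4.28 ± 0.414 (adjusted p = 4.43e-08). AT5G43620, with the same product name, showed 2.79 and -0.68 per hour, a difference of -3.47 (adjusted p = 4.13e-08), and OPT6, an oligopeptide transporter, 2.34 and -0.56 per hour, a difference of -2.90 (adjusted p = 0.00364). The fall of OPT6, -0.84 (adjusted p = 0.0218), was not called without the third 30 min replicate (-0.56) or without the first or the second 120 min replicate (-0.76 and -0.84).

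Others rose early and then more slowly. AT5G18370, a TIR-NBS-LRR disease resistance gene, read 4.54, 5.44 and 3.89 CPM at 0 min, 15.7, 15.6 and 22 at 30 min, 23, 22.8 and 24.8 at 60 min and 24.4, 24.1 and 23.3 at 120 min. All libraries at 60 and 120 min stood above those at 30 min and overlapped each other, and the rate went from 3.89 to 0.29 per hour (adjusted p of the difference = 1.32e-08). Its late rise was called, at 0.44 with the replicate block (edgeR, adjusted p = 0.00858). The call was lost with library size alone (0.20) and without the first or the second 30 min replicate (0.35 in both). LYK2, a LysM receptor-like kinase, showed 3.73 and 0.42 per hour, a difference of -3.31 (adjusted p = 0.0093). The late rise of LYK2 was called only with a block of replicate within each genotype, at 0.61 (edgeR, adjusted p = 0.0126).

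Large upward differences were found in genes that lost most of their transcript before 30 min. MAKR6, a membrane-associated kinase regulator, read 32.8, 40.8 and 52.2 CPM at 0 min and 3.59, 5.3 and 5.03 at 30 min, then 1.66, 3.78 and 2.23 at 60 min and 1.73, 1.59 and 1.75 at 120 min. Nearly all of the loss came before 30 min, with rates of -6.35 and -0.97 per hour, a difference of 5.39 ± 0.758 (adjusted p = 3.06e-05). BT2 had rates of -4.80 and -0.97, the DUF1005 gene AT3G19680 of -4.23 and -0.40, MYB34 of -3.60 and -0.93 and IAA2 of -3.33 and -0.84, all with a difference past the threshold. SAUR55 had a difference of 3.96 with the replicate block (edgeR, adjusted p = 8.27e-05) and a late rise of 1.37. Its level thus fell before 30 min and rose afterwards. AT3G19680 was barely called in the late part (-0.60, adjusted p = 0.0436), and the call was lost when any single library at 30 or 120 min was left out.

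**Figure D4:**
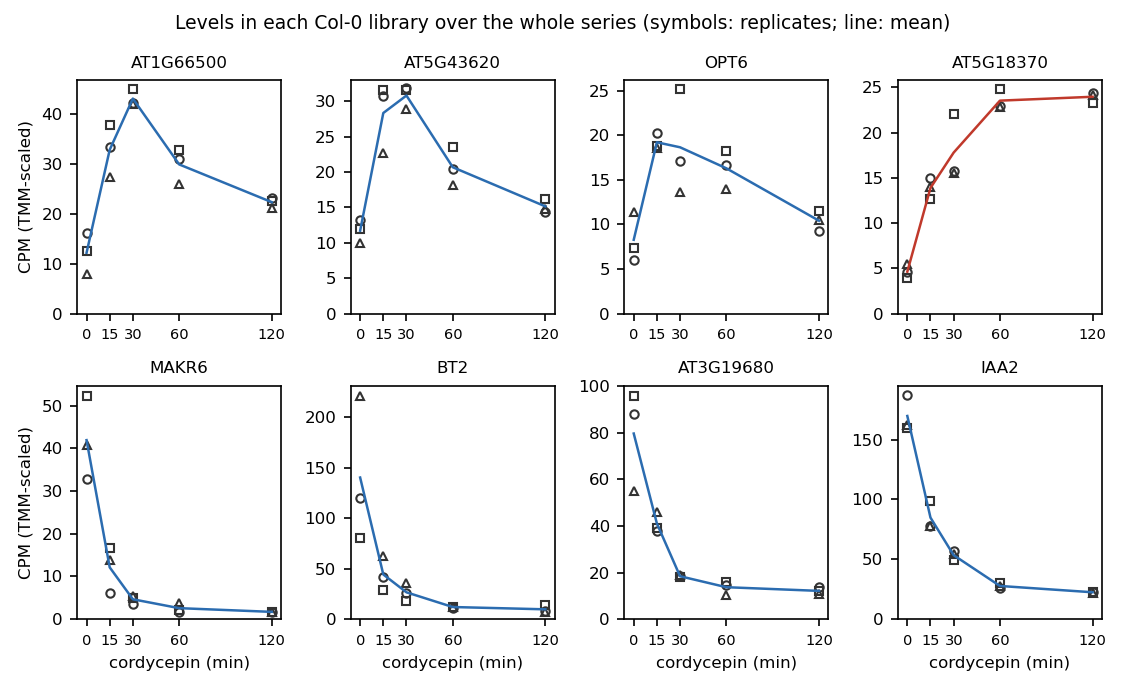
Level in CPM of 8 genes in the 3 Col-0 libraries at each of 0, 15, 30, 60 and 120 min, with lines through the means. The 15 min libraries were part of the fit but of no comparison. AT1G66500, AT5G43620 and OPT6 peak by 30 min and then fall, AT5G18370 levels off after 60 min, and MAKR6, BT2, AT3G19680 and IAA2 lose most of their transcript in the first 30 min.

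Over the same interval the line labelled rh6812 showed a smaller fall for many genes, histones among them. The 3 targets were read first. RH8 stood at 35.4, 29.7 and 38.4 CPM in Col-0 at 30 min and at 3.11, 3.92 and 3.88 in rh6812, and RH12 at 17.6, 18.2 and 18.7 against 9.7, 9.11 and 10.5. RH6 went the other way, with 30.8, 34.7 and 34 CPM in Col-0 and 339, 313 and 265 in rh6812. Counts per gene do not show whether such reads come from intact transcripts. The difference of the late changes, Col-0 minus rh6812, was past the threshold in 542 genes downward (2.52%) and 150 upward (0.698%), 3.22% in all, or 902 and 384 with the replicate block. The counts ran from 306 to 541 and from 53 to 180 when single libraries were left out, and were lowest without the first and the second Col-0 replicate at 30 min, respectively. This difference shares the Col-0 libraries with the late change itself, so the values of each line are given side by side. The median change of the 3322 genes that fell in Col-0 was -0.22 in rh6812, and that of the 2298 that rose was 0.17. Both sets were chosen by their Col-0 values, so smaller medians in rh6812 follow in part from that choice.

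The H3.1 gene AT5G65360 stood at 60.8, 71.2 and 68.6 CPM at 30 min and 61.9, 60.2 and 56 at 120 min in rh6812, where the times overlapped, while every Col-0 value at 120 min was below 9 CPM. The difference was -1.82 ± 0.173 (adjusted p = 3.82e-07). HTB2 read 13.2, 15.9 and 14.1, then 14.2, 14.8 and 14 CPM in rh6812, a difference of -1.92 ± 0.171 (adjusted p = 1.92e-07). Of the 43 genes with a histone product name 26 had a difference downward and 0 upward, against 2.52% downward over all genes tested. The median late change of the 43 was -0.03 in rh6812 against -0.998 in Col-0. All 5 H3.1 genes were among the 26.

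**Figure D5:**
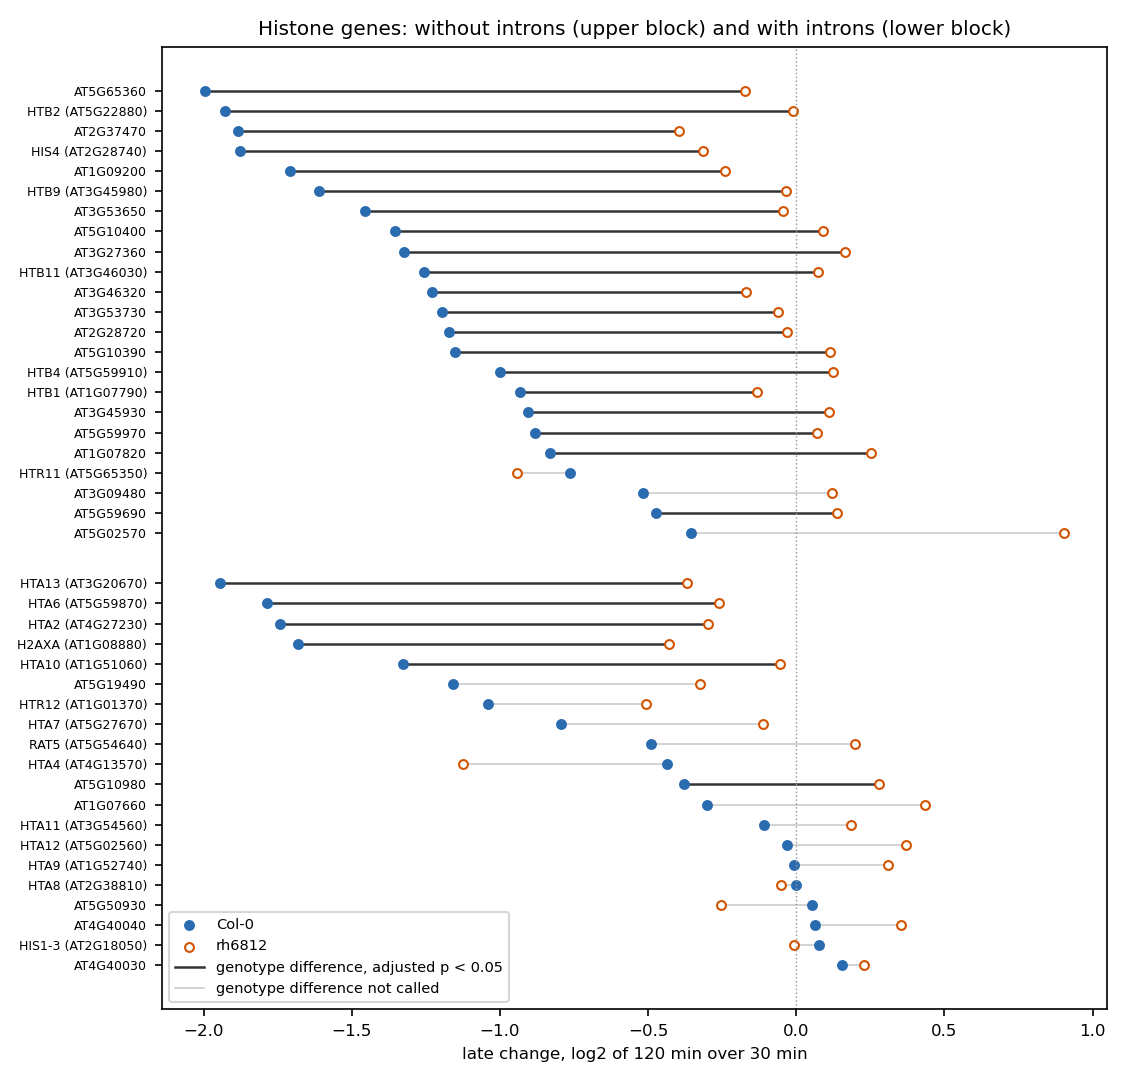
Late change of 43 genes with a histone product name, log2 of 120 over 30 min, in Col-0 and in the line labelled rh6812, in blocks without and with introns. In Col-0 the intronless genes have a median of -1.20, and in rh6812 one of -0.01.

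BBX6 read 68.4, 58.7 and 69 CPM at 30 min and 60.9, 57.7 and 65 at 120 min in rh6812, where the times overlapped, and its difference was -1.74 ± 0.19 (adjusted p = 4.3e-06). EXLA1 read 71.6, 49.4 and 80.9, then 58.3, 58.9 and 72 CPM, a difference of -1.97 ± 0.519 (adjusted p = 0.0392). The largest differences downward among genes whose log2 CPM averaged 3 or more were those of NUDT8, a Nudix hydrolase, at -2.09 ± 0.524 (adjusted p = 0.03), the alpha/beta hydrolase AT1G78210 at -2.04, AT3G62550 at -2.02, EXLA1 and AT3G15450 at -1.93. Of 12 JAZ genes 3 had a difference downward, with a median late change of 0.10 in rh6812, and of 15 dark and sugar starvation genes 3, with a median of 0.02. Over all genes tested 2.52% had a downward difference. BT4 and GLK2 fell in both lines, by 1.82 and 1.59 in rh6812, and their differences, -0.56 ± 0.402 and -0.69 ± 0.395, were not past the threshold. Cyclins had medians of -0.49 in Col-0 and -0.51 in rh6812, and 0 of 28 had a difference past the threshold (edgeR).

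Upward differences were led by LECRKA4.2, which started high in rh6812, at 11.7, 11.4 and 8.7 CPM, and stood at 12.5, 18.2 and 15.3 at 120 min. The Col-0 libraries at 120 min overlapped with those of rh6812 at either time. The difference was 2.098 ± 0.321 (adjusted p = 0.000447). FRK1, a receptor-like kinase used as a marker of pattern-triggered immunity, rose in Col-0 from 2.67, 3.51 and 4.97 CPM to 8.45, 8.75 and 8.41, and stood at 15.9, 18.8 and 10.9, then 15.4, 17.1 and 15.9 in rh6812, a difference of 1.12 ± 0.314 (adjusted p = 0.0455). The protein kinase AT1G66880 had a difference of 1.30, with a Col-0 change of 1.26, and the leucine-rich repeat kinase AT1G35710 one of 1.34, with a fall of 1.25 in rh6812 and a Col-0 change of 0.09 that was not called. XPL1, a methyltransferase of phosphocholine synthesis, rose by 0.56 in Col-0, a call lost with library size alone and without the second 30 min or the first 120 min replicate (0.33, 0.47 and 0.45), and changed by -0.58 in rh6812 (adjusted p = 0.0501), a difference of 1.14. In rh6812 chloroplast loci took 44.8% to 45% of counts at 30 min and 44.5% to 49.4% at 120 min, below the Col-0 shares at each time, and the part of this gap in the differences was not tested.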

How the data were processed

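The authors deposited a table of whole-number read counts per gene for 42 RNA-seq libraries in 14 groups of 3, and 30 of them, rRNA-depleted, were fitted here. Per the labels' protocols these were made with an Illumina TruSeq total RNA kit with Ribo-Zero (Plant). TAIR10, TopHat2 2.0.14 and Bowtie2 2.2.5 are named per the submitters' processing notes. How reads were counted, and on which strand, is not given in the sources used here: overlapping, antisense and near-identical genes may share reads. Of 27667 loci 27455 matched RefSeq's TAIR10.1 table, used for names and gene models only. No coordinates are printed.

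Samples were grouped by genotype and time as labelled. Counts were filtered with filterByExpr (at least 10 counts, at least 15 in total), scaled by TMM and tested in R 4.3.3 with edgeR 4.0.16, the robust quasi-likelihood test with 1 mean per group, two-sided, at a Benjamini-Hochberg adjusted p of 0.05 over all genes tested. The SE was taken as |log2| divided by the root of F, and is approximate. CPM values are these counts after TMM scaling, taken to a fixed library total. Levels were not compared between genes. Same-numbered Col-0 libraries deviated together (9 correlations of 0.292 to 0.588, against -0.407 to 0.0222 for 18 pairs of different number), so replicate number was also used as a block. Replicates differed beyond counting noise, with chi-square per degree of freedom of 8.45 to 27.9 in 15 pairs. The biological coefficient of variation was 14.38%, 14.06% and 11.42% within the Col-0 groups at 30, 60 and 120 min.

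Alternatives were DESeq2 1.42.0 and its size factors, library size alone, TMM over nuclear genes, no count filter beyond 1 count, smaller fits, replicate blocks (that within each genotype was chosen after seeing the data) and leaving out each library. Named genes are the 10 largest falls and rises among called, non-overlapping genes that averaged a log2 CPM of 3 or more, up to 4 members of each list by p, and the 5 largest differences in each direction for the change of rate and for the genotype. H3, H2A.Z and histone family genes, the 3 helicases, and the few others outside this rule were named after their values were seen. The comparisons, the 32 lists and their members were chosen with earlier results of these data known. The tests were checked on simulated counts.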

Additional observations from a re-analysis of the deposited data

Results flagged for a closer look

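For 40 of the 100 named genes the late change differed between Col-0 and the line labelled rh6812 by a test of the difference itself (edgeR, adjusted p under 0.05 over all genes tested). The difference, Col-0 minus rh6812 in log2 units, was downward for 28 genes and upward for 12. Over all genes tested 2.52% were downward and 0.698% upward. Many of the named genes were chosen by this difference or by their change in Col-0, so these counts follow in part from the choice. Groups of 3 are too small for a test of single samples that lie apart.

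Among histone genes the difference was -1.92 for HTB2, -1.82 for AT5G65360, -1.58 for HTB9, -1.57 for HTA13, -1.49 for AT3G27360, -1.47 for AT1G09200, -1.45 for AT5G10400, -1.44 for HTA2, -1.26 for AT5G10390 and -0.66 for AT5G10980. Among transcription factors and hormone signalling repressors it was -1.83 for RAP2.6, -1.75 for JAZ9, -1.74 for BBX6, -1.10 for JAZ3, -0.97 for IAA28, -0.93 for JAZ11, -0.90 for BBX25 and -0.66 for BBX4. Among the other genes with a downward difference it was -2.09 for NUDT8, -2.04 for AT1G78210, -2.02 for AT3G62550, -1.97 for EXLA1, -1.93 for AT3G15450, -1.74 for MEE14, -1.38 for TPS11, -1.21 for AT1G66500, -0.997 for TPS8 and -0.96 for AT5G43620.

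Among receptor kinases the difference was 2.098 for LECRKA4.2, 1.34 for AT1G35710, 1.30 for AT1G66880, 1.12 for FRK1, 0.81 for HLECRK and 0.80 for CRK3. For the remaining upward genes it was 1.45 for WRKY61, 1.14 for XPL1, 1.01 for PDC1, 0.70 for AT5G18370, 0.69 for RH6 and 0.62 for RPN1A. RH6 is 1 of the 3 helicases named by the line, and its reads were more abundant in rh6812 than in Col-0 at every time compared.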

How the results depend on the processing

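The late change called 1593 to 1938 genes higher and 2442 to 2875 lower when single libraries were left out. Scaling by library size alone moved it to 484 higher and 5699 lower, the second step to 69 and 1870 and the upward genotype differences to 36. DESeq2's size factors left 89 genes lower in the first step. DESeq2's Wald test called 86 higher in the first step, 550 higher in the second and 401 upward genotype differences. A fit of the 15 Col-0 libraries alone called 12 higher and 51 lower in the first step and 360 lower in the second, and a fit of the 12 libraries of the genotype contrast alone called 293 downward. The replicate block gave 62 and 306, 548 and 912, and for the genotype 384 and 902. The block within each genotype, chosen after seeing the data, gave 121 and 594, 837 and 1244, 1 upward change of rate at 60 min, 648 upward changes of rate from early to late, and 686 and 1371 genotype differences. Beside RPL3A, the replicate block changed no call of the late change among the 100 named genes. It added genotype differences for XTH16, CHE, AT1G65690, VHA-A, PAB2, AT5G14730, AT2G18150, IAA2, SAUR79, LSM1A, TUB3 and IAA4 (edgeR, adjusted p from 0.00394 to 0.0458) and changed no step or rate call of a single gene given in the text.

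Without single libraries the first step ran from 4 to 33 higher and 42 to 132 lower (over 1.5 times fewer in at least 1 direction without the first or second library at 30 min or any at 60 min), the second from 77 to 146 and 225 to 375 (over 1.5 times fewer without any 1 of the 6), the early to late change from 187 to 406 upward and 670 to 858 downward, and the genotype difference from 53 to 180 and 306 to 541. The genotype counts fell by over 1.5 times in at least 1 direction without the first or second Col-0 library at 30 min, any at 120 min, replicate 1 or replicate 3 of rh6812 at 30 min or its second at 120 min. The cause of these moves was not tested. Not every count fell: the first step reached 33 higher against 30 with all libraries, and the genotype difference 180 upward against 150.

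Of 1400 values of the late change of the 100 named genes under alternatives, 1338 kept direction and side of the threshold, 35 (15 genes) lost the call, 7 (2 genes) gained it and 20 (7 genes) changed sign, all of genes not called. HTA8 became 0.055 with DESeq2's size factors and Wald test, 0.017 with TMM over nuclear genes, 0.023 in the Col-0 fit and 0.00036 with the replicate block, and ran from -0.042 to 0.052 without single libraries. HTA9 became 0.047 and 0.046 with DESeq2's size factors and Wald test, 0.0087 with nuclear TMM and 0.014 in the Col-0 fit, and ran from -0.071 to 0.055. With library size alone AT4G40030 became -0.073, AT4G40040 -0.16, RH8 -0.072, RH12 -0.17 and AT1G35710 -0.13, and the last ran from -0.046 to 0.21 without single libraries. With 3 libraries a group, small changes of weakly expressed genes are not resolved.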
